A study of Homo sapiens with 2 samples.

Results

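The genes described here are the BCL2 family, the caspases and the proteins that switch them on or hold them off, measured in HCECs transfected with miR-184 mimic or NC. The list held 40 genes chosen by name, and 37 of them were measured by an array feature (transcript cluster) that carried that symbol alone, out of 22368 genes named in this way. *CFLAR* and *BBC3* had a feature with several symbols and *RIPK1* had none that was listed, so these 3 genes have no value here. HCECs are corneal epithelial cells immortalized with SV40, whose large T antigen is known to bind p53 and RB in any cell that carries it, so both conditions share that background. NC is the negative control of the transfection, and the dose listed for both conditions is 50 nM. Total RNA of each condition was profiled on 1 array at 48 h. The series holds 1 array of each condition, so there is no replicate check, no *P*-value and no error here. An effect of miR-184 cannot be told apart from any other difference between the 2 RNA samples. The study selected lower genes by a *P*-value as well as a fold change, and these 2 arrays cannot give one. The labelled cell type was only partly borne out by its markers. *KRT8*, *KRT18*, *KRT5*, *CDH1* and *EPCAM* lay above the median signal of all genes in both arrays, and the basal keratin gene *KRT14*, the other of the 6 epithelial genes, lay below it (3.75 with miR-184 and 3.56 with NC). In contrast, *KRT3*, *KRT12*, *PAX6* and *ALDH3A1*, markers of corneal epithelium, all lay below it (log2 signals of 3.35 to 3.82 with miR-184 and 3.29 to 3.81 with NC). *TP63*, the other of the 5 corneal genes listed, had no value. Of the markers of other cell types, none of 5 for keratocytes and fibroblasts lay above that median, and 1 of 3 did for leukocytes (*CD68*) and for endothelium (the cadherin gene *CDH5*). *CDH5* read 6.77 with miR-184 and 8.19 with NC, and its part in the results below was not tested.

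Apoptosis runs along an intrinsic route through mitochondria and an extrinsic route through death receptors. In the intrinsic route BH3-only proteins sense damage and block the anti-apoptotic BCL2 proteins, which frees BAX and BAK1 to open the outer mitochondrial membrane. Cytochrome c then leaves the mitochondria and assembles the apoptosome with APAF1, which activates CASP9 and, through it, the effector caspases. In the extrinsic route the adaptor FADD recruits CASP8 and CASP10 to the receptors. The corneal epithelium loses its surface cells by shedding and apoptosis throughout life. *BCL2* is named in the study among the genes that earlier work had found to be targets of miR-184.

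A microRNA finds its target mainly through its seed, bases 2 to 8 counted from the 5′ end, and the mature sequence is shown because the transfected mimic supplies this RNA. It is credited to RefSeq (GRCh38.p14), where it lies at chr15:79209840-79209861 on the plus strand, and the seed is in capitals.
miR-184: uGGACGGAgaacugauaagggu
A site that pairs with the whole seed reads UCCGUCC in the target RNA, and of 2545 mature human miRNAs in the table used only 1, miR-184 itself, had this seed. No 3′-UTR sequence was used here, so the apoptosis genes were not searched for that site.

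Of the 37 genes, 32 differed by less than 1.5 times between the 2 arrays. *CASP2*, *CASP1*, *BMF* and *BCL2L12* were lower with miR-184 by at least that ratio, and only *CYCS* was higher. The 4 lower genes were 10.8% of the 37, against 4.16% of all 22368 genes, and the 1 higher gene was 2.70%, against 3.74% of all genes. Signal matters for this reading, since genes with a bright feature passed the ratio more often. Of the 37 genes 32 lay at or above the median signal, and 12.5% of these were lower, against 7.74% of the 11184 genes at or above that median. The share that was higher was 3.12% of the 32, against 6.24%. All signals are on the log2 scale. A difference here is log2 signal with miR-184 minus log2 signal with NC, and its median was -0.05 for the 37 genes and 0.04 for all genes. When dim genes were left out, it was -0.04 for the 32 genes and -0.015 for all 11184. Of the 37 genes 22 lay below 0 (59.5%, against 40.5% of all genes), 14 above and 1 at 0. Of the 32 genes 59.4% lay below 0, against 51.2% of the 11184. Because the RNA came from whole cultures, fewer cells with a transcript and less of it per cell cannot be told apart. In the RefSeq annotation 20 of the 37 genes overlap another annotated gene, and whether their features separate the transcripts was not tested.

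**Figure D1:**
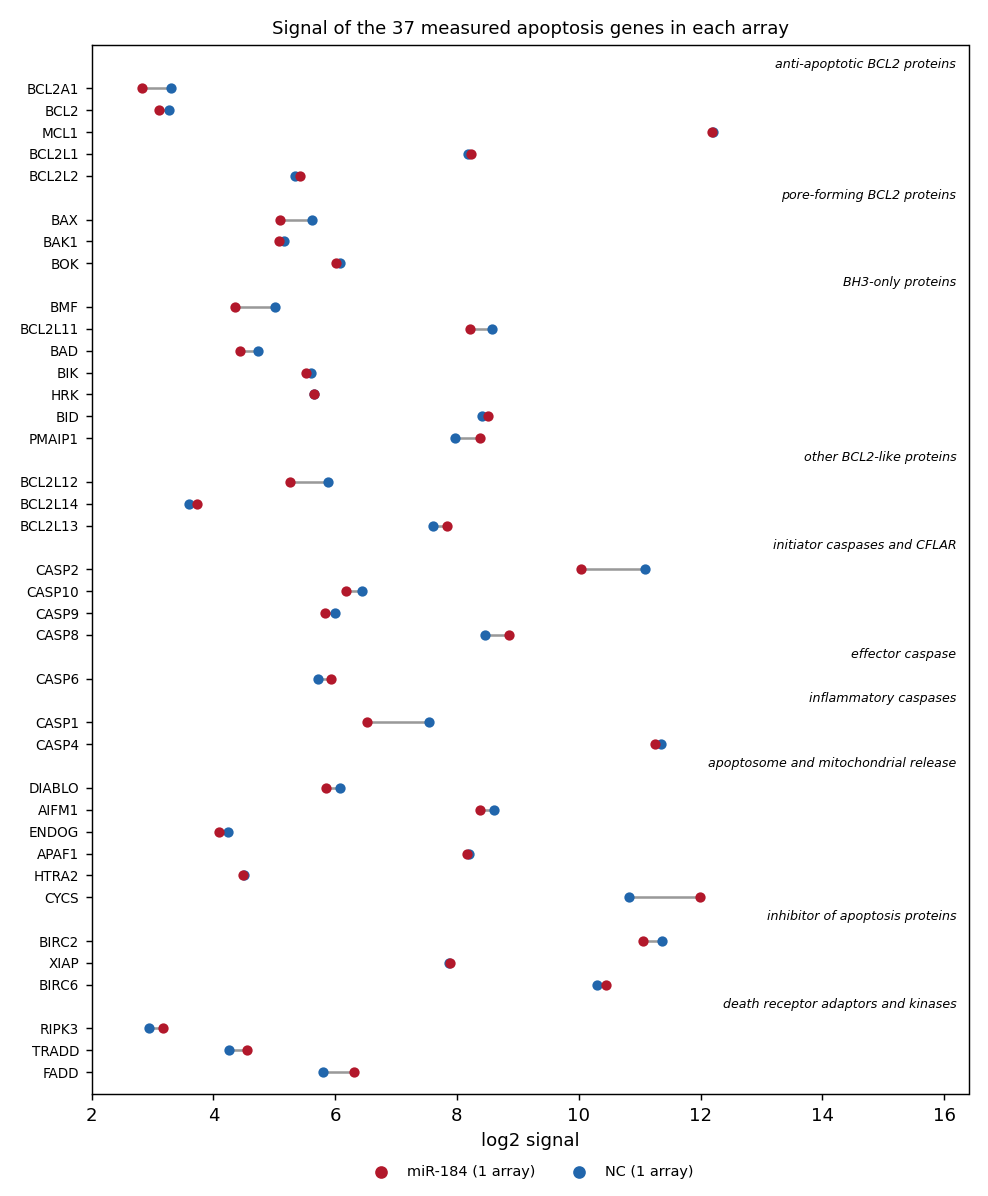
Log2 signal of each measured gene in the miR-184 array (red) and in the NC array (blue), 1 array each, with a grey line between them, grouped by role. The longest lines belong to *CASP2*, *CASP1* and *CYCS*, and the points of *MCL1*, *HTRA2*, *HRK* and *XIAP* lie on top of each other.

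The anti-apoptotic BCL2 proteins hold BAX and BAK1 in check, and none of their 5 genes reached 1.5 times in either direction (median -0.02, which turned to 0.04 after quantile normalization, to 0.01 after removal of the trend with signal and to 0.06 without dim genes). *BCL2* itself read 3.10 with miR-184 and 3.27 with NC, a difference of -0.16. Its signal was below the median of all genes in both arrays. Among the 1118 genes in the same 1 of 20 bands of mean signal, 67 had a larger fall. The median difference across that band was 0.07 and the SD 0.16. *BCL2* therefore lay further below genes of like signal than its distance from 0 shows. *BCL2A1*, a gene that NF-kB induces in other cells, had the largest difference of the group, at 2.83 with miR-184 and 3.31 with NC (-0.48). Both *BCL2* and *BCL2A1* lay at the level of the leukocyte markers *PTPRC*, at 3.16 with miR-184 and 3.09 with NC, and *CD3E*, at 3.35 with miR-184 and 3.26 with NC. Neither feature is therefore shown to lie above background, and their differences have no firm reading. The short-lived protein's gene *MCL1* read 12.19 with miR-184 and 12.21 with NC. *BCL2L1*, which encodes BCL-XL, read 8.23 with miR-184 and 8.17 with NC, and *BCL2L2*, which encodes BCL-W, read 5.43 with miR-184 and 5.34 with NC. Apart from *BCL2A1* and *BCL2*, the genes of this group thus stayed within 0.09 of 0 in the values as deposited. After quantile normalization *BCL2L1* differed by 0.15 and *BCL2L2* by 0.11.

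All 3 pore-forming proteins lay below 0, none of them at 1.5 times (median -0.08). *BAX* read 5.10 with miR-184 and 5.62 with NC, a difference of -0.52 (1.44 times lower), and 75 of 1118 genes of similar signal had a larger fall. *BAK1*, whose product sits in the outer mitochondrial membrane, differed by -0.08 and *BOK*, a relative of both, by -0.05. In the values as deposited *BAX* was therefore the only pore former with a difference over 0.1 in size. After centring on the median *BAK1* differed by -0.12.

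The BH3-only genes were spread to both sides, from -0.66 for *BMF* to 0.41 for *PMAIP1*, with a median of -0.09 over the 7 measured. *BMF*, which encodes a BH3-only protein held on the cytoskeleton in healthy cells, read 4.35 with miR-184 and 5.00 with NC (1.58 times lower). Among 1119 genes of similar signal 35 had a larger fall. *BCL2L11*, which encodes BIM, was lower on both of its features, at 8.21 with miR-184 against 8.57 with NC on the brighter one and 6.61 with miR-184 against 7.14 with NC on the other. These are differences of -0.36 and -0.53, and it was the only one of the 37 genes with more than 1 feature. *PMAIP1*, which encodes NOXA, a binder of MCL1, went the other way, at 8.38 with miR-184 and 7.96 with NC (1.33 times higher, with 150 of 1118 genes of similar signal having a larger rise). *BAD*, whose product is silenced by phosphorylation under growth factors, differed by -0.30. *BIK* differed by -0.09 and *BID*, whose product CASP8 cleaves to link both routes, by 0.09. *HRK* had exactly the same deposited value in both arrays, 5.65. *BAX*, *APAF1* and *PMAIP1*, 3 of the measured genes that p53 is known to induce in other cells, were picked after their values were seen. They did not share a direction (-0.52, -0.03 and 0.41), and they are not a full list of such genes.

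Of the less typical BCL2-like genes, *BCL2L12* read 5.26 with miR-184 and 5.89 with NC, a difference of -0.63 (1.54 times lower), and 49 of 1118 genes of similar signal had a larger fall. Its gene overlaps *IRF3*, which encodes a transcription factor of the interferon response. *BCL2L13*, a mitochondrial protein that also serves in mitophagy, differed by 0.24. *BCL2L14* differed by 0.12 on a feature dimmer than the median gene.

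Just past the 1.5 times ratio, which is 0.585 on the log2 scale, stood *BCL2L12* and *BMF*. The genes that came closest without reaching it were *BAX* at -0.52 on the lower side and *FADD* at 0.50 on the higher side. The 3 genes with clearly larger differences were thus *CASP2*, *CASP1* and *CYCS*, each past 2 times.

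**Figure D2:**
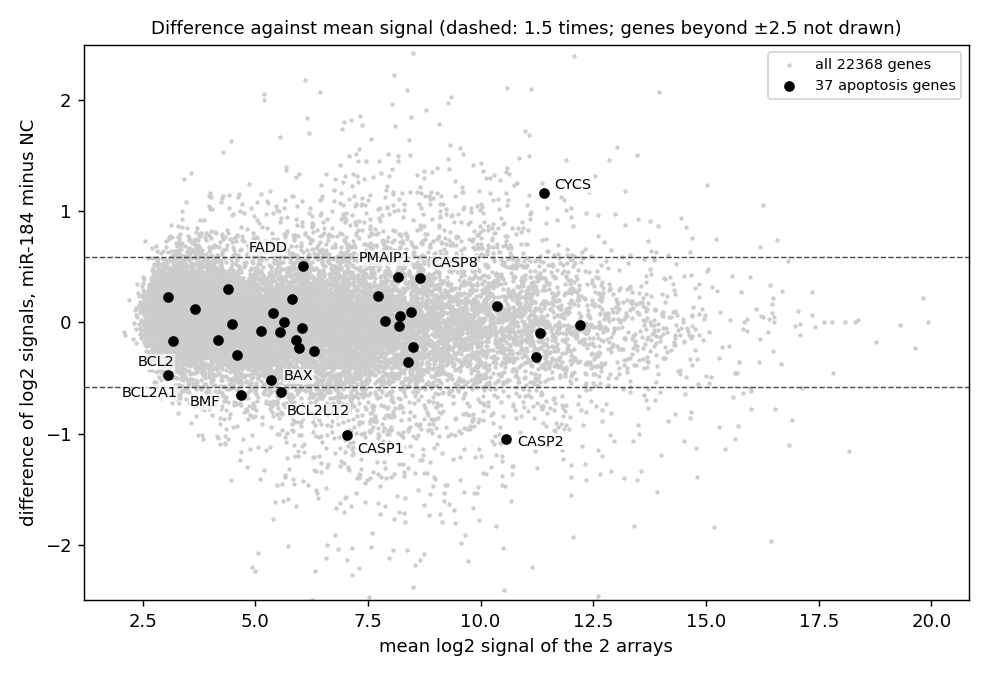
Log2 signal with miR-184 minus that with NC against the mean log2 signal of the 2 arrays, for all named genes (grey) and the 37 apoptosis genes (black), with dashed lines at 1.5 times. *CASP2* and *CASP1* lie below the lower line at about -1 and *CYCS* above the upper line at 1.17, while *BCL2* lies inside the grey cloud at the dim end.

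The initiator caspases differed among themselves. *CASP2*, the initiator of the PIDD1 complex that responds to DNA damage and to extra centrosomes, read 10.04 with miR-184 and 11.09 with NC. It was 2.07 times lower (-1.05), the largest fall of the 37 genes, and 40 of 1118 genes of similar signal had a larger one. *CASP9*, the caspase of the apoptosome, read 5.83 with miR-184 and 6.00 with NC (-0.16). *CASP8* read 8.86 with miR-184 and 8.45 with NC (0.40, 1.32 times higher). *CASP10*, its closest relative, read 6.18 with miR-184 and 6.44 with NC (-0.26). *CASP8* and *CASP10* are next to each other among coding genes in the annotation, beside *CFLAR*, yet their differences had opposite signs. *CASP6*, an effector caspase that cleaves nuclear lamins, read 5.93 with miR-184 and 5.72 with NC (0.21).

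The inflammatory caspases act in pyroptosis rather than in apoptosis. *CASP1*, the caspase of the inflammasome, read 6.52 with miR-184 and 7.54 with NC, a difference of -1.02 (2.02 times lower). Among 1118 genes of similar signal 37 had a larger fall. *CASP4*, which senses bacterial lipopolysaccharide inside the cell, read 11.26 with miR-184 and 11.35 with NC (-0.10). Only *CASP5* lies between *CASP4* and *CASP1* among the coding genes of that locus. It differed by 0.11 on a feature dimmer than the median gene, at 3.66 with miR-184 and 3.55 with NC. *CARD16*, whose short product resembles the CARD domain of CASP1, was looked at after its value was seen because of that likeness. It read 6.02 with miR-184 and 6.50 with NC (-0.48), and how far probes of *CASP1* and *CARD16* detect both transcripts was not tested. *CASP1* is known as an interferon-induced gene in many cells.

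Of the genes whose products leave the mitochondria or build the apoptosome, 1 of 6 passed the ratio, and the other 5 lay a little below 0 (median of the 6, -0.10), with *APAF1* turning to 0.05 after quantile normalization. *CYCS*, which encodes somatic cytochrome c, an electron carrier of the respiratory chain and a trigger of the apoptosome once released, read 11.98 with miR-184 and 10.82 with NC. It was 2.24 times higher (1.17), and only 18 of 1119 genes of similar signal had a larger rise. The RefSeq annotation holds 45 pseudogenes named after *CYCS*, and whether its probes also detect transcripts from these was not tested. *APAF1*, the scaffold of the apoptosome, read 8.17 with miR-184 and 8.20 with NC (-0.03). The genes of the 2 proteins that relieve caspases of their inhibitors after release, *DIABLO* and *HTRA2*, differed by -0.23 and -0.01. *AIFM1*, a mitochondrial oxidoreductase that moves to the nucleus in caspase-independent death, differed by -0.22, and *ENDOG*, a mitochondrial nuclease, by -0.16. *CYCS* thus differed from the other genes of its group in direction and in size.

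Among the inhibitor of apoptosis proteins, *BIRC2*, a ubiquitin ligase of the TNF receptor complex, read 11.06 with miR-184 and 11.37 with NC (-0.31). The direct caspase inhibitor gene *XIAP* differed by 0.02 and *BIRC6*, which encodes a giant ubiquitin-conjugating enzyme, by 0.15. None reached 1.5 times (median 0.02, or -0.02 after centring).

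The 3 measured death receptor adaptors and kinases were all higher in the miR-184 array, although none passed the ratio (median 0.30). Of all 22368 genes 12386 also lay above 0, as did 5194 of the 11184 at or above the median signal. *FADD* read 6.31 with miR-184 and 5.80 with NC, a difference of 0.50 (1.42 times higher), and 70 of 1118 genes of similar signal had a larger rise. *TRADD*, the adaptor of TNF receptor 1, read 4.55 with miR-184 and 4.25 with NC (0.30), and 159 of 1118 genes of similar signal had a larger rise. *RIPK3*, the kinase of necroptosis, read 3.18 with miR-184 and 2.95 with NC (0.23) on a feature dimmer than the median gene. Like *BCL2* and *BCL2A1*, which had signals of that level, *RIPK3* is not shown to lie above background. Genes of similar signal had a median difference of 0.06, so the direction of *RIPK3* has no firm reading.

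**Figure D3:**
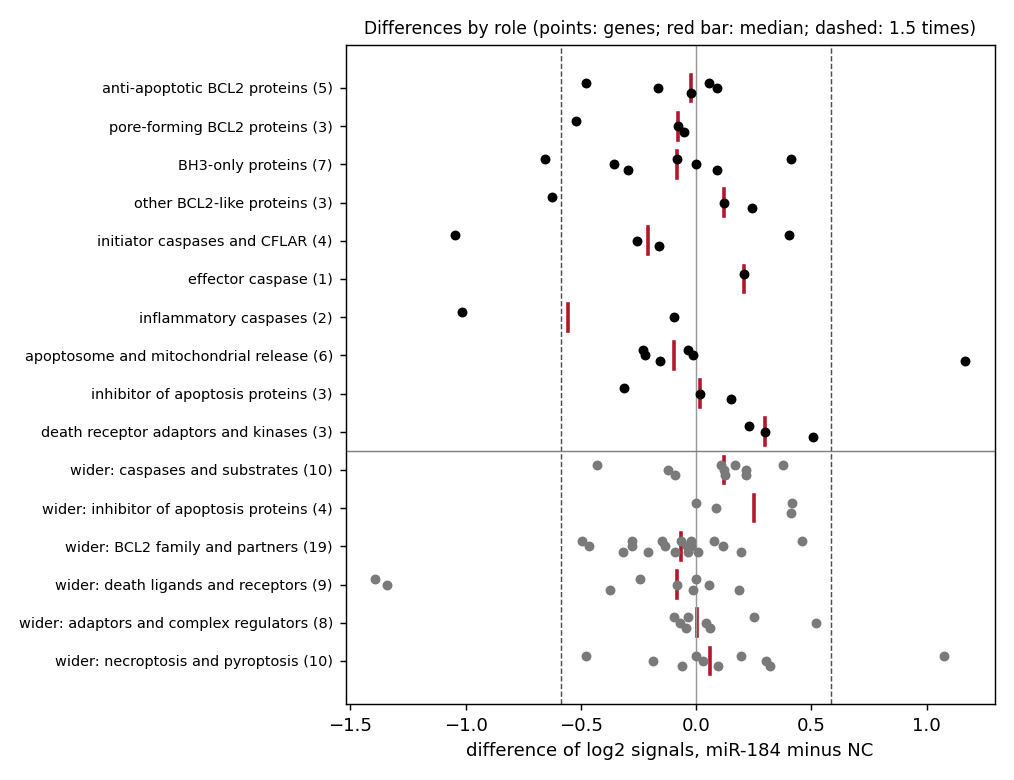
Log2 signal with miR-184 minus that with NC for each gene (points) by role, with the median of each role (red bar) and dashed lines at 1.5 times. The upper 10 rows are the 37 apoptosis genes and the lower 6 rows, in grey, the 60 genes of the wider list, with the number of genes in brackets. Of the 37 genes 32 lie between the lines, and so do 57 of the 60 genes of the wider list.

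A wider list of 67 genes of cell death, chosen by function to set beside these, had 60 measured genes. Of these 2 were at least 1.5 times lower and 1 was higher (3.33% and 1.67%, against 4.16% and 3.74% of all genes), with a median difference of -0.01. The 2 lower ones belong to the death ligands and receptors. *TNFSF10*, which encodes the death ligand TRAIL, read 4.96 with miR-184 and 6.35 with NC (-1.39). *TNFRSF21*, which encodes death receptor 6, read 12.23 with miR-184 and 13.57 with NC (-1.34). The other 7 genes of that group lay between -0.37 for *FAS* and 0.18 for *TNFRSF1A*. The higher one was the inflammasome sensor gene *NLRP3*, at 5.81 with miR-184 and 4.74 with NC (1.08). *NLRP3* and *CASP1*, which work in the same complex, hence lay at opposite sides. None of 10 caspases and caspase substrates, 4 inhibitor of apoptosis proteins, 19 BCL2 partners and 8 adaptors passed the ratio.

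The same 5 genes passed 1.5 times after centring, after quantile normalization and after removal of the trend with signal, and no other of the 37 genes did. Over these settings *CASP2* lay between -1.088 and -1.004, *CASP1* between -1.06 and -0.97, and *CYCS* between 1.12 and 1.20. *BCL2* lay between -0.23 and -0.16, and did not reach the ratio.

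**Figure D4:**
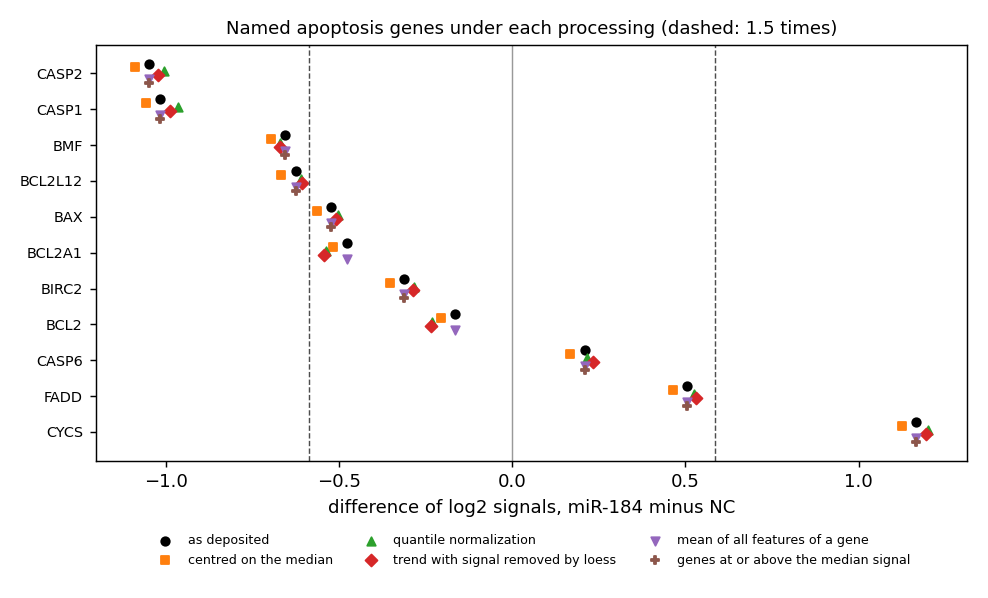
Log2 signal with miR-184 minus that with NC of the genes with the largest difference in each role and of *BCL2*, as deposited (black circles) and under 5 other ways of processing (coloured marks), with dashed lines at 1.5 times. All marks of a gene lie on the same side of each dashed line. Those of *CASP2*, *CASP1*, *BMF*, *BCL2L12* and *CYCS* lie beyond a line, and those of the other genes lie between the lines. *BCL2* and *BCL2A1* have no mark where genes below the median signal were left out.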

How the data were processed

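Total RNA was hybridised, according to the study's methods, to the Affymetrix Human Transcriptome Array 2.0, and the data were normalized by the authors in Expression Console. The series holds 1 array per condition, and the methods do not say how many cultures gave its RNA. What they deposited is 1 log2 signal per gene-level feature (65854 in all). Agilent Cy3 labelling and Agilent Feature Extraction 9.1, which stand in the labels and the submitters' notes, go against the feature identifiers, which are Affymetrix ones. No source used here gives the genome build. The 23730 features to which the platform table gives a single symbol were kept, 303 symbols were updated through RefSeq (GRCh38.p14), and the feature with the highest mean signal stood for each of 22368 genes. The difference is miR-184 minus NC, without a filter, and no test was made, since the number of arrays limits the precision. Genes were counted at 1.5 times in each direction. For comparison with genes of similar signal, all genes were divided into 20 bands of mean signal.

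The 40 genes, their roles and the wider list were chosen with earlier results of these data known. All 40 are accounted for. Full values are given for *BCL2*, for each gene past 1.5 times and for the largest difference in each role, and, of the wider list, for genes past 1.5 times, with a few others named for their function. The alternatives were centring on the median, quantile normalization, a loess fit on signal (span 0.3) taken off the differences, averaging a gene's features, leaving out genes dimmer than the median, and 2 times as the ratio. The steps were tested on simulated data. Python 3.11.15, numpy 2.4.6, pandas 2.3.3, statsmodels 0.14.6 and matplotlib 3.10.9 were used.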

Additional observations from a re-analysis of the deposited data

How the results depend on the processing

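At 2 times in place of 1.5 times, 2 of the 37 genes were lower, *CASP2* and *CASP1*, since *BMF* and *BCL2L12* did not reach that ratio, and *CYCS* was still higher. Of all genes 303 were then lower and 220 higher, against 930 and 836 at 1.5 times. The other counts, the median of the 37 genes (-0.09 to -0.04) and the difference of *BCL2* moved by less than 1.5 times in count or 0.1 in log2 difference. Of the 37 genes 3 changed their side of 0, each from within 0.04 of it: *MCL1* (0.04 after quantile normalization and 0.01 after removal of the trend), *APAF1* (0.05 after quantile normalization) and *XIAP* (-0.02 after centring). *BCL2* has no value where dim genes were left out. Medians of 5 of the 16 roles moved by over 0.1 when dim genes were left out, among them the death receptor adaptors and kinases (0.40). No paired analysis was possible because each condition has 1 array. With 1 array each, neither replicate spread nor the smallest detectable difference is known.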

Other observations

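The deposited value was the same in both arrays, to every digit given, for 923 of 22368 genes (4.13%) and for 1915 of 65854 features (2.91%). *HRK* was the only one of the 37 apoptosis genes among them, and *NAIP*, *GSDMD* and *TNFRSF10D* belonged to them in the wider list. A difference of 0 for these genes is therefore a property of the deposited values, and how it came about was not tested.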
